A study of Homo sapiens with 12 samples.

Results

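The 49 genes described here encode the machinery that copies the genome and makes its building blocks: 6 subunits of the origin recognition complex, 3 factors of origin licensing and its control, 6 subunits of the MCM helicase, 6 genes of helicase activation and the GINS complex, 10 of the replicative polymerases and primase, 6 of the sliding clamp and its loader, 3 of the single-strand binding complex RPA, 4 of Okazaki fragment processing and 5 of deoxynucleotide synthesis and uracil removal. They were chosen by name, by matching the Ensembl IDs of the authors' raw count table to GENCODE symbols, out of 26652 genes with at least 1 count. All 49 had enough counts to be tested, among 13959 tested genes. RNA came from HK2, an established human line derived from kidney proximal tubule and grown in DMEM with 10% fetal bovine serum, in 4 groups of 3 libraries. Nontarget cells (labelled shControl, genotype WT) carried a short hairpin RNA (shRNA) without a human target, and knockdown cells carried one against FLCN, the tumor suppressor gene mutated in Birt-Hogg-Dubé syndrome. Short-term cells were harvested at fewer than 30 passages and long-term cells after 120 passages per the labels, while the methods of the study set a lower minimum for long-term cells. The cells of both shRNA lines had been selected as clones, and the clone behind each library is not given in the sources used here, so an effect of the shRNA and one of the clone that carries it cannot be told apart.

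Before S phase, the origin recognition complex together with CDC6 and CDT1 loads the MCM helicase onto DNA, and geminin (GMNN) blocks a repeat of that step. The helicase is switched on by MCM10, CDC45 and GINS, primase and polymerase alpha lay down primers, the clamp loader RFC places the PCNA ring that holds polymerases delta and epsilon, and RPA coats the exposed single strands. Many of these genes are transcribed in a wave around the start of S phase under the control of E2F transcription factors, so their mRNA level in a culture is widely used as a sign of proliferation. In bulk RNA, more cells in S phase and more RNA per cell cannot be told apart.

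Totals ran from 5825779 to 8991051 counts per library, and FLCN itself, at 12.7 to 16.7 CPM (counts per 1000000 counts of the normalized library size) in the short-term and 9.92 to 12.2 CPM in the long-term nontarget libraries, lay at 5.66 to 6.58 and 6.31 to 7.97 CPM in the knockdown libraries of the same time. Of 13 genes listed for proximal tubule identity, 5 had enough counts to be tested, and HNF4A and LRP2 had 0 counts in all 12 libraries. Summed markers of leukocytes reached at most 1.32 CPM and of endothelium at most 2.20 CPM, while 7 fibroblast markers summed to 49.2 to 56.8 CPM in short-term and 24.6 to 36.8 CPM in long-term libraries. Of the tested markers (5 proximal tubule, 4 epithelial and 3 fibroblast genes), some passed in each comparison (edgeR adjusted p below 0.05). The log2 fold changes of those that did were 0.33 for PAX8, 0.48 for MME and 0.51 for GGT1 in short-term knockdown, and −0.61, 1.17 and 0.85 for the same genes in long-term knockdown, with 3.69 for LUM, −3.56 for PDGFRB and −0.59 for EPCAM. Over culture time in nontarget cells they were 0.63 for PAX8, −0.48 for MME, 0.44 for KRT18, −2.70 for KRT19 and −4.64 for LUM, and in knockdown cells −0.31 for PAX8, −2.99 for KRT19, −1.31 for EPCAM, −1.74 for PDGFRB and −0.94 for LUM. The differences between the times were −0.94 for PAX8, 0.69 for MME, −0.54 for KRT18, −1.11 for EPCAM, −2.64 for PDGFRB and 3.70 for LUM. The part of these shifts in the values of the 49 genes was not tested. The libraries numbered 3 stood apart in 3 of the 4 groups. Their deviations from the group means correlated across genes with r = 0.455 to 0.467 between short-term knockdown, long-term nontarget and long-term knockdown cells, and CDT1 was 114, 93.4 and 106 CPM in them against 56.8 to 71.9 CPM in the other 6 libraries of these groups.

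Sequence before the transcription start is shown for 7 of the genes, to set 4 that hold the letters of an E2F site beside 3 that do not. Each is the 150 bases that end next to a start, from RefSeq windows on GRCh38.p14. MCM7 had 3 windows and PCNA and TK1 had 2 each. Of these, the window with the most E2F letters, then the most CCAAT boxes, over its 300 bases is shown. Capitals mark the E2F letters TTTCCCGC, TTTCGCGC, TTTGCCGC and TTTGGCGC and the CCAAT box, each searched on both strands, with overlapping matches counted separately. The regions are chr2:135876444-135876593 on the minus strand for MCM6, chr7:100101398-100101547 on the minus strand for MCM7, chr20:5126623-5126772 on the minus strand for PCNA, chrX:24693768-24693917 on the plus strand for POLA1, chr17:78187053-78187202 on the minus strand for TK1, chr17:1829855-1830004 on the plus strand for RPA1 and chr3:186806483-186806632 on the minus strand for RFC4.
MCM6: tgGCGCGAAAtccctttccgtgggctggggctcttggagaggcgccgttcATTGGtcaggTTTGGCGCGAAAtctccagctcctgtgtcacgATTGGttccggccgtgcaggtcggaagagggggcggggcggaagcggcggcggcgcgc
MCM7: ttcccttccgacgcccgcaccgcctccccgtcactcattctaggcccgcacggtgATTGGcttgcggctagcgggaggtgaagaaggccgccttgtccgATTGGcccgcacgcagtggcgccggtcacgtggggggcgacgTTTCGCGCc
PCNA: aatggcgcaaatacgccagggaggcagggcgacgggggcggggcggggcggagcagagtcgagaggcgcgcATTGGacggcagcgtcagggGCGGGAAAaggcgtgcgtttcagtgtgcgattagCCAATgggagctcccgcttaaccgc
POLA1: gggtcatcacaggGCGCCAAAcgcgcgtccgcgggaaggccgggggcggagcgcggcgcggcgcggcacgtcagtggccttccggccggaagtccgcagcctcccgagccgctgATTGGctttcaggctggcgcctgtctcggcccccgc
TK1: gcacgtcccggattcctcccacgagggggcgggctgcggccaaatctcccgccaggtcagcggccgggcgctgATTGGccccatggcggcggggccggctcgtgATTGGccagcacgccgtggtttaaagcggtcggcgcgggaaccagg
RPA1: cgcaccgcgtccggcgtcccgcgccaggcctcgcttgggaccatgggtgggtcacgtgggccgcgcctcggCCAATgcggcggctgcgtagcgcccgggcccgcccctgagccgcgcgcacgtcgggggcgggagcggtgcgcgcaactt
RFC4: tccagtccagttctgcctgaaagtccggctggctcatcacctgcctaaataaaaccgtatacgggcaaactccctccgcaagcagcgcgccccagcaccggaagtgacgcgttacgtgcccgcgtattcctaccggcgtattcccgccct
These stretches held 3 matches to the E2F letters at MCM6, 1 each at MCM7, PCNA and POLA1 and 0 at TK1, RPA1 and RFC4. Over windows of 300 bases (250 before and 50 after the start), 42 of the 49 genes had an entry, and 20 of them (47.6%) held the E2F letters, against 1090 of 27305 genes (3.99%) in the whole table. A gene with several windows was counted by the window with the most matches. The CCAAT box was found at 26 of the 42 genes (61.9%) and at 39.7% of all genes. The letters TTTGAA, the core of an element of genes expressed late in the cell cycle, were found at 3 of the 42 genes (7.14%) and at 18.2% of all genes. RPA2, RPA3, GINS4, DNA2, MCM4, MCM5 and POLD3 had no entry. A match of letters is a description of the sequence and not a measurement of binding.

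All 49 genes lay in the upper part of the expression range. Per length, as RPKM (CPM per kilobase of exon) averaged over the 12 libraries, the lowest were ORC2 at 5.07 and POLD3 at 5.36, and ORC2 lay at percentile 51.5 of the tested genes. RPA3, the middle gene of the 49 by level, had an RPKM of 23.6 and lay at percentile 85.5. PCNA had an RPKM of 278, TK1, the thymidine kinase of the salvage pathway, 243, and MCM7 147, so these genes lay at percentiles 99.1, 98.9 and 98.1. The MCM subunits ran from an RPKM of 28.2 for MCM5 and 53.7 for MCM6 to 72.7 for MCM2, 82.7 for MCM3 and 147 for MCM7. The length used is that of all annotated exons of a gene joined, 7338 bases for MCM5 and 4118 for MCM6. Their total counts were 17220 and 18509. The length of the expressed mRNAs was not measured, so gaps in RPKM between genes also depend on the annotated length. MCM7 shares 392 exon bases with AP4M1, and position alone does not tell which of them gave a read from a shared stretch. Summed over the 49 genes, libraries held 6263 to 6485 CPM for short-term nontarget and 6257 to 6365 CPM for short-term knockdown cells, and 6863 to 6994 CPM and 7357 to 7535 CPM for the same pair of long-term groups. The short-term groups overlapped in this sum, and both long-term groups lay above them without overlap.

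**Figure D1:**
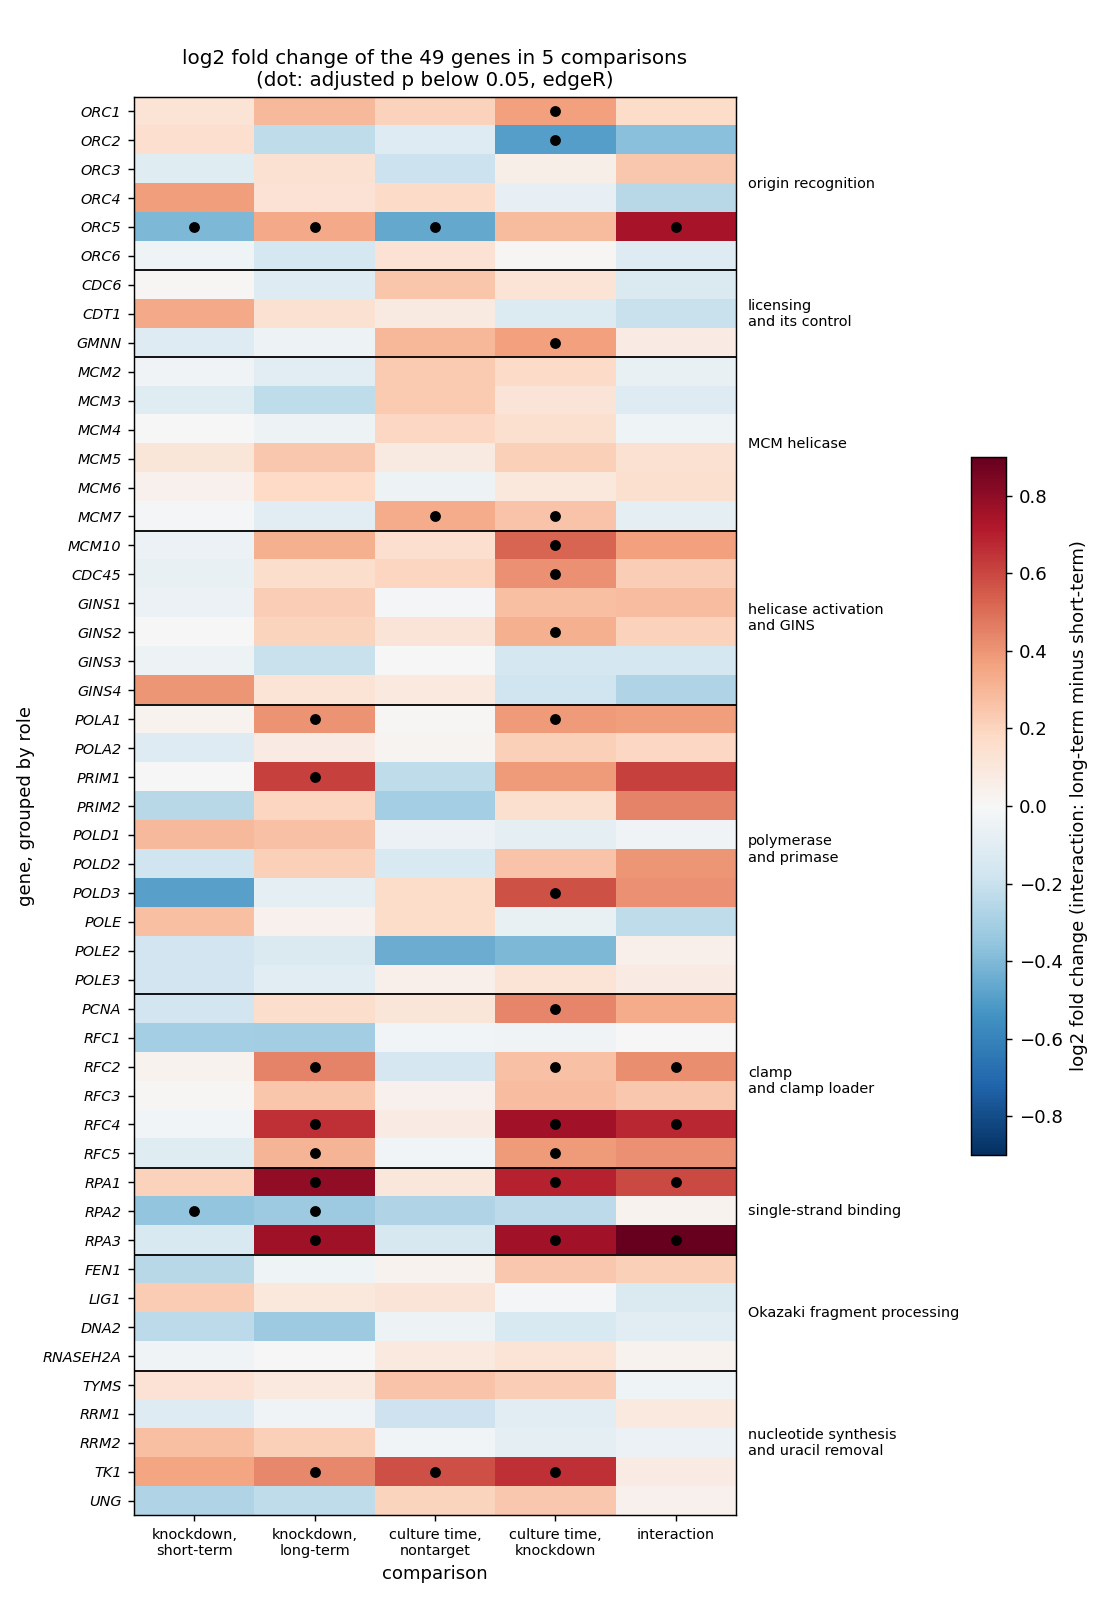
Log2 fold change of the 49 genes (rows, grouped by role) in the 5 comparisons (columns), from blue (lower) to red (higher), with a dot where the edgeR adjusted p is below 0.05. The dots number 2 for short-term knockdown, 10 for long-term knockdown, 3 and 16 for culture time in nontarget and knockdown cells and 5 for the interaction, and none lies on MCM2 to MCM6.

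The first comparison asked what FLCN knockdown does in short-term cells. Few of the replication genes moved: 0 of 49 rose and 2 fell, ORC5, a subunit of the origin recognition complex, and RPA2, the middle subunit of the single-strand binding complex. Of all genes tested, 10.3% passed the same test (5.62% higher and 4.71% lower; edgeR's quasi-likelihood test, adjusted p below 0.05). DESeq2 gave 0 higher and 3 lower, with UNG added, beside 8.74% of all its tested genes. At an unadjusted p below 0.05 in edgeR there were 10 of the 49 (20.4%), near the 23.1% of all tested genes. The 49 genes had a median log2 fold change of −0.03, against −0.00 for all tested genes, and single values ran from −0.49 for POLD3, an accessory subunit of polymerase delta, to 0.39 for GINS4.

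ORC5 (chr7:104126341-104208047) had 50.3, 45.9 and 42.4 CPM in the short-term nontarget libraries and 36.3, 38.3 and 30.1 CPM in the knockdown libraries. All 3 knockdown libraries lay below every nontarget library, and the log2 fold change was −0.40 (SE 0.124, edgeR adjusted p = 0.0465). RPA2 (chr1:27891524-27914746) had 89.9, 96.1 and 98.0 CPM without and 76.5, 80.0 and 64.8 CPM with knockdown, again without overlap, as was found in this direction for 15.0% of all tested genes (−0.36, SE 0.107, edgeR adjusted p = 0.0398). Both calls sat near the threshold: leaving out any 1 of 8 libraries ended that of ORC5 (highest adjusted p 0.203, on leaving out short-term nontarget replicate 1), and any 1 of 6 libraries that of RPA2 (up to 0.149, without short-term knockdown replicate 3). Of the 49, 0 passed without any 1 of the 3 short-term nontarget libraries, short-term knockdown replicate 1 or long-term knockdown replicate 1, and 1 passed without short-term knockdown replicate 3 or long-term nontarget replicate 2. There are 3 pseudogenes named after RPA2, with which reads may be shared.

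The genes most used as proliferation markers did not pass the test in short-term cells. PCNA had 407, 379 and 392 CPM without and 346, 379 and 318 CPM with knockdown (log2 fold change −0.18, 95% interval −0.37 to 0.02). MCM2 had 336, 328 and 340.5 CPM against 313, 305 and 364 CPM (−0.03, −0.26 to 0.20). CDC6, the licensing factor, had 140.0, 153 and 159.9 CPM against 156, 166 and 134 CPM (0.01, −0.22 to 0.24). The groups overlapped for MCM2 and CDC6, and the PCNA libraries differed by a narrow gap. Of the nucleotide genes, RRM2, the regulated subunit of ribonucleotide reductase, had 125, 113 and 125 CPM without and 144, 135 and 159 CPM with knockdown, and TYMS, thymidylate synthase, had 197, 186 and 186 CPM without and 214, 208 and 201 CPM with knockdown. Both were higher in every knockdown library, with log2 fold changes of 0.27 and 0.13 and edgeR adjusted p-values of 0.164 and 0.386. RRM2 lies on chromosome 2, where its 40 nearest tested genes had a median log2 fold change of 0.38, and the part of that shift in its value was not tested.

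In long-term cells, the same comparison moved 10 of the genes, among them all 3 of the single-strand binding complex, 3 of the clamp loader and the catalytic subunit of primase. The share of counts from mitochondrial genes also differed between these groups, at 2.72% to 3.34% in the nontarget and 3.79% to 5.60% in the knockdown libraries, as did the share of the 10 most abundant genes, at 5.25% to 5.52% and 6.38% to 7.57%, and their part in the changes was not tested. Of the 49 genes, 9 rose: RPA1, RPA3, RFC4, RFC2, RFC5, PRIM1, POLA1, TK1 and ORC5. RPA2 fell. Of all genes tested, 29.5% passed (13.7% higher and 15.8% lower), so the 18.4% of the 49 that rose lay near the background and the 2.04% that fell below it. The 49 had a median log2 fold change of 0.13, against 0.00 for all tested genes, and 31 of the 49 values were above 0. On leaving out each library in turn, the median of the 49 ran from 0.0851 (without long-term nontarget replicate 3) to 0.132. With a fold limit of 2.5 (2 for culture time) added, 0 of the 49 remained in any of the 5 comparisons, where 1.79% of all tested genes remained for short-term and 6.61% for long-term knockdown, 2.87% and 8.78% for culture time in nontarget and knockdown cells and 5.44% for the interaction. Without long-term nontarget replicate 2 the count of 10 fell to 6.

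The 3 subunits of RPA did not move together. RPA1, the large DNA-binding subunit (chr17:1829702-1900082), had 232, 221 and 208 CPM in the long-term nontarget libraries and 405, 375 and 368 CPM in the knockdown libraries. RPA3, the small subunit (chr7:7636518-7718607), had 73.3, 57.5 and 60.2 CPM without and 129.9, 102 and 91.1 CPM with knockdown. RPA2 had 79.6, 81.8 and 74.0 CPM without and 65.3, 66.2 and 56.3 CPM with knockdown. No library of one group reached the range of the other for any of the 3 genes. RPA1 rose 1.74-fold (log2 fold change 0.79, SE 0.0872, adjusted p = 2.24e-06 in edgeR) and RPA3 1.69-fold (0.76, SE 0.149, edgeR adjusted p = 8.21e-04), while RPA2 fell by 20.1% (−0.32, SE 0.107, edgeR adjusted p = 0.0301). The calls of RPA1 and RPA3 held without each of the 12 libraries, and that of RPA2 was lost without long-term nontarget replicate 1 or 2 or long-term knockdown replicate 1 or 3 (adjusted p up to 0.106). RPA1 shares 156 exon bases with SMYD4, and RPA3 shares 188 with UMAD1 and AC007161.3.

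**Figure D2:**
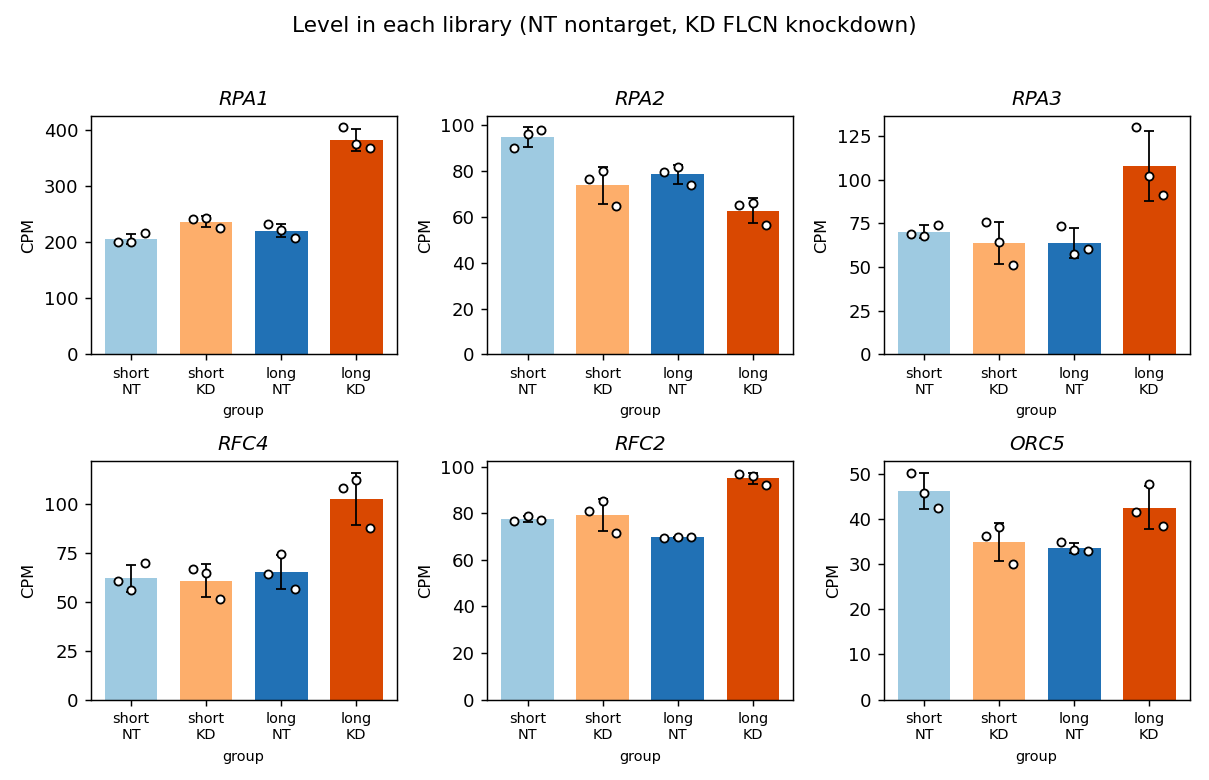
Level in CPM (vertical axes, from 0) of RPA1, RPA2, RPA3, RFC4, RFC2 and ORC5 in each library (circles), with the mean of each group of 3 (bar) and its SD (error bar). By group mean, RPA1, RPA3, RFC4 and RFC2 stand highest in long-term knockdown cells and RPA2 is lowest there. The mean of ORC5 is high in 2 groups, the nontarget cells of short-term and the knockdown cells of long-term culture.

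Of the clamp loader, 3 of 5 subunits rose, all of them among the small subunits that the alternative clamp loaders share. RFC4 (chr3:186789880-186807058) had 64.5, 74.3 and 56.8 CPM without and 108, 113 and 87.7 CPM with knockdown (1.58-fold, log2 fold change 0.66, SE 0.135, edgeR adjusted p = 0.00119). RFC2 had 69.4, 69.8 and 69.6 CPM without and 97.0, 95.8 and 92.3 CPM with knockdown (0.45, SE 0.0938, edgeR adjusted p = 0.00141). RFC5 had 82.8, 70.9 and 76.1 CPM without and 92.8, 92.4 and 98.5 CPM with knockdown (0.30, SE 0.0965, edgeR adjusted p = 0.0241). The knockdown libraries lay above the nontarget ones for all of these genes, as for 19.0% of all tested genes, and the RFC5 call was lost without 5 libraries, all 3 long-term knockdown ones and long-term nontarget replicates 2 and 3 (adjusted p up to 0.119). RFC1, the large subunit particular to the replicative loader, had a log2 fold change of −0.31 (edgeR adjusted p = 0.143), and RFC3 0.25 (0.144). PCNA, the ring they load, had 445, 439 and 386 CPM without and 490.0, 479 and 445 CPM with knockdown, with a log2 fold change of 0.16 (95% interval −0.04 to 0.35).

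Of the primase and polymerase alpha genes, the catalytic subunits PRIM1 and POLA1 rose. PRIM1 had 34.6, 37.6 and 27.3 CPM without and 56.0, 55.5 and 40.5 CPM with knockdown (1.54-fold, log2 fold change 0.62, SE 0.160, edgeR adjusted p = 0.00703). POLA1 had 99.7, 83.8 and 85.4 CPM without and 129, 125 and 102 CPM with knockdown (0.40, SE 0.113, edgeR adjusted p = 0.0116). Every knockdown library lay above the nontarget libraries for both genes, and the POLA1 call was lost without long-term nontarget replicate 2 or long-term knockdown replicate 1 or 2 (adjusted p up to 0.0690). The partner subunits had smaller values that did not pass, 0.19 for PRIM2 and 0.08 for POLA2. The subunits of polymerases delta and epsilon lay between −0.13 for POLE2 and 0.26 for POLD1, and 0 of 6 passed in edgeR or DESeq2. PRIM1 shares 527 exon bases with AC117378.1, HSD17B6 and NACA.

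ORC5 turned its direction between the times. It had 34.8, 33.1 and 32.9 CPM in long-term nontarget and 41.5, 47.7 and 38.5 CPM in long-term knockdown libraries (log2 fold change 0.34, SE 0.124, adjusted p = 0.0466 in edgeR). The groups did not overlap. That call was lost without any 1 of 9 libraries (highest adjusted p 0.222, on leaving out long-term knockdown replicate 2) and in DESeq2 (adjusted p = 0.0611). TK1 had 411, 458 and 535 CPM without and 590.0, 532 and 771 CPM with knockdown (0.43, SE 0.138, edgeR adjusted p = 0.0253). The lowest TK1 knockdown library lay just below the highest nontarget library, and the call was lost without long-term nontarget replicate 1 or 2 or long-term knockdown replicate 3 (adjusted p up to 0.131). Of the other nucleotide genes, TYMS had 235, 226 and 221 CPM against 245, 240.1 and 241 CPM (0.09), and RRM2 had 133, 99.3 and 126 CPM against 151, 135 and 129 CPM (0.21). Neither passed, nor did RRM1 at −0.03. UNG, which removes uracil from DNA, was at −0.23 and passed in DESeq2 and with the filter at 10 CPM but not in edgeR as fitted here.

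The licensing and helicase genes did not pass the test in long-term knockdown without a replicate block. The MCM subunits had log2 fold changes of −0.23 for MCM3, −0.10 for MCM2, −0.10 for MCM7, −0.04 for MCM4, 0.18 for MCM6 and 0.24 for MCM5. MCM2 had 358, 383 and 442 CPM without and 354, 333 and 420.1 CPM with knockdown, so the groups overlapped, and its 95% interval was −0.33 to 0.13. CDC6 had 182, 192 and 166 CPM without and 173, 178 and 146 CPM with knockdown (−0.12, −0.35 to 0.11). In edgeR, 0 of 6 MCM subunits, 0 of 3 licensing genes, 0 of 6 helicase activation genes and 0 of 4 Okazaki genes passed, as in DESeq2, and 1, 0, 2 and 1 of them had an unadjusted p below 0.05, beside 39.0% of all tested genes. With the replicate number as a block, 17 genes passed in place of 10, beside 36.8% of all tested genes in place of 29.5%. The 34.7% of the 49 thus lay near the background. The number was taken to pair the samples of these groups, which no label states, and the blocked fit used all 12 libraries. All 10 were among the 17, with MCM5, MCM10 and ORC1 added higher and MCM3, RFC1, DNA2 and UNG added lower.

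**Figure D3:**
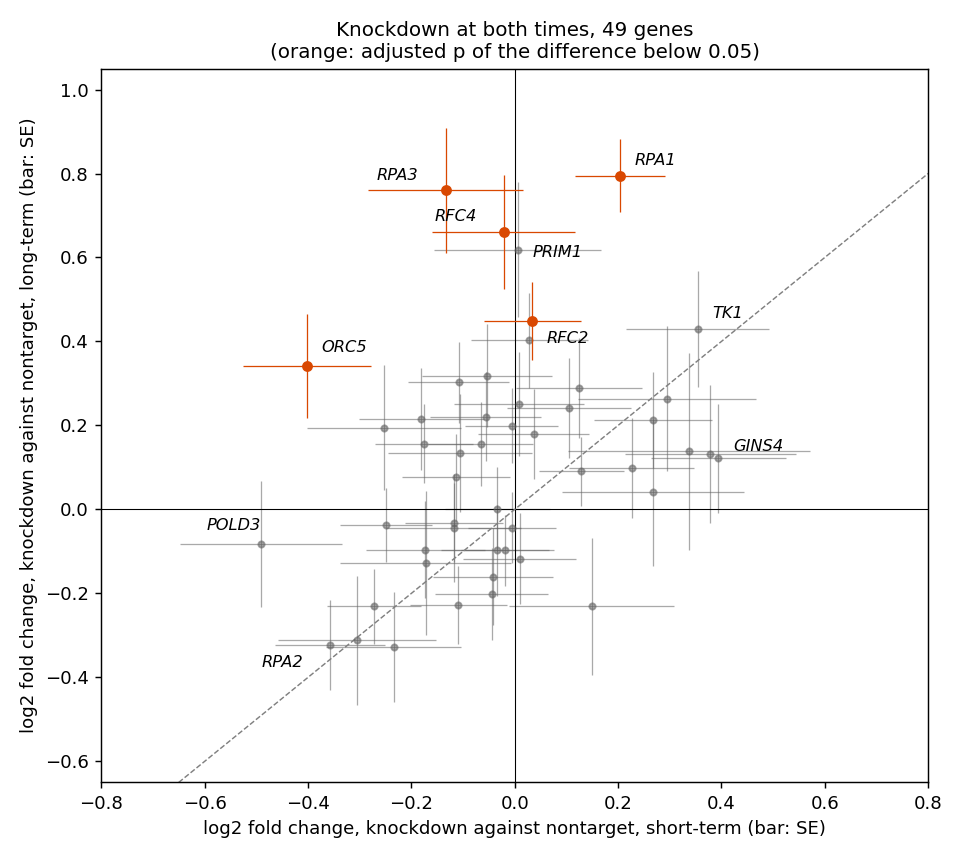
Log2 fold change after FLCN knockdown in short-term cells (horizontal) and in long-term cells (vertical) for the 49 genes, with the SE as bars and a dashed line where both are equal. The 5 genes whose difference between the times had an edgeR adjusted p below 0.05 (orange: RPA3, ORC5, RFC4, RPA1 and RFC2) all lie above the line.

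Whether knockdown acted differently at the 2 times was tested by the interaction term. Of the 49 genes, 5 passed, and in each the long-term value was the higher (4.98% of all tested genes passed in this direction, 8.43% in the other and 13.4% in all). The log2 difference was 0.89 for RPA3 (SE 0.211, edgeR adjusted p = 0.00800), 0.74 for ORC5 (SE 0.175, 0.00779), 0.68 for RFC4 (SE 0.193, 0.0246), 0.59 for RPA1 (SE 0.123, 0.00311) and 0.42 for RFC2 (SE 0.133, 0.0469). For ORC5 it joins a fall and a rise, while RPA1, RPA3, RFC4 and RFC2 did not pass in short-term cells, at log2 fold changes of 0.20, −0.13, −0.02 and 0.03. RPA2, lower after knockdown at both times, had a difference of 0.03 (95% interval −0.28 to 0.35). The difference for PRIM1 was 0.61 and did not pass (edgeR adjusted p = 0.0870), though it did without the filter on low counts and with the replicate block. The call of RFC2 was lost without any 1 of 10 libraries (edgeR adjusted p up to 0.115) and without the filter. That of RFC4 was lost without long-term knockdown replicate 1 or 2 or the third replicate of each other group (up to 0.0729). The count of 5 fell to 3 without any 1 of the latter 5 libraries.

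Over long-term culture in nontarget cells, 3 of the 49 genes (6.12%) passed, near the 7.55% of all tested genes (3.17% higher and 4.38% lower). MCM7 and TK1 rose and ORC5 fell. The mitochondrial share of counts was 4.29% to 4.47% in the short-term and 2.72% to 3.34% in the long-term libraries of this comparison and the share of the 10 most abundant genes 6.09% to 6.61% and 5.25% to 5.52%, and their part was not tested. TK1 went from 332, 310.1 and 297 CPM in short-term to 411, 458 and 535 CPM in long-term nontarget libraries (log2 fold change 0.58, SE 0.139, edgeR adjusted p = 0.0145). MCM7 went from 601, 583 and 566 to 684, 748 and 773 CPM (0.33, SE 0.0847, edgeR adjusted p = 0.0207). Every long-term library lay above the short-term ones for both genes. ORC5 fell by 0.46 as log2 (SE 0.124, edgeR adjusted p = 0.0290), its 3 long-term libraries below the short-term ones. Leaving out short-term nontarget replicate 2 or long-term nontarget replicate 3 left 0 of the 49 past the threshold, and leaving out short-term nontarget replicate 1 or 3 or long-term nontarget replicate 2 left 1.

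Of the 6 MCM subunits, 5 had a value above 0 in this comparison. Beside MCM7, MCM2 was 0.24 higher, MCM3 0.23, MCM4 0.19 and MCM5 0.08 on the log2 scale, and MCM6 was −0.05. For MCM2, MCM3 and MCM4 every long-term library lay above the short-term libraries, with edgeR adjusted p-values of 0.238, 0.158 and 0.234. CDC6 was 0.25 (edgeR adjusted p = 0.197), TYMS 0.26 (0.0646, and 0.0110 in DESeq2) and PCNA 0.11 (0.608). Among all tested genes, 12.1% had every long-term nontarget library above the short-term ones, and 11 of the 49 did.

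Over culture time in knockdown cells, 16 of the 49 genes (32.7%) passed. The share of all tested genes was larger here too, at 26.6% against 7.55% in nontarget cells. Of the 49 genes, 15 rose (30.6%) and 1 fell (2.04%), against 11.5% of all tested genes higher and 15.2% lower. The median log2 fold change was 0.21 over the 49, against 0.01 for all tested genes. The rises took in RPA1 (0.69, SE 0.0871, edgeR adjusted p = 1.28e-05), RFC4 (0.75, SE 0.136, 4.74e-04) and RPA3 (0.75, SE 0.149, 0.00107), for which every long-term knockdown library lay above every other library of the series. PCNA went from 346, 379 and 318 CPM in short-term to 490.0, 479 and 445 CPM in long-term knockdown libraries (1.36-fold, 0.44, SE 0.0945, edgeR adjusted p = 0.00206). TK1 went from 368, 362 and 471 to 590.0, 532 and 771 CPM (0.66, SE 0.139, edgeR adjusted p = 0.00183). These groups did not overlap for either gene, and 18.3% of all tested genes had every long-term library above the short-term ones here.

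Among the helicase activation genes, MCM10 rose by 0.52 on the log2 scale (edgeR adjusted p = 0.00454), CDC45 by 0.41 (0.00531) and GINS2 by 0.32 (0.0122). CDC45, which joins MCM and GINS in the active helicase, had 48.3, 48.1 and 48.0 CPM in short-term and 59.7, 62.7 and 70.4 CPM in long-term knockdown libraries, which did not overlap. POLD3 rose by 0.57 (edgeR adjusted p = 0.0107), RFC5 by 0.39 (0.00657), POLA1 by 0.38 (0.0184), ORC1 by 0.37 (0.0287) and GMNN by 0.37 (0.0422). MCM7 rose by 0.25 (edgeR adjusted p = 0.0346) and RFC2 by 0.26 (0.0479). ORC2 fell, from 33.8, 40.4 and 28.8 to 25.5, 27.3 and 20.2 CPM (−0.49, SE 0.162, edgeR adjusted p = 0.0315), with all 3 long-term libraries below the short-term ones. CDC6 (0.13), MCM2 (0.17), RRM2 (−0.08) and TYMS (0.22) did not pass in edgeR without a block, and TYMS passed in DESeq2 (adjusted p = 0.0196). Leaving out long-term knockdown replicate 1 or 2 brought the count of 16 down to 10 or 9. The RFC2 call was lost without any 1 of 10 libraries (adjusted p up to 0.181) and with RLE factors, no filter, the filter at 10 CPM or only the groups compared, and those of MCM7 and GMNN without any 1 of 8 libraries each (up to 0.0924 and 0.172) and with only the groups compared, that of MCM7 also without the filter and that of GMNN with the filter at 10 CPM. Those of ORC2 and ORC1 were lost without any 1 of 4 libraries each (up to 0.151 and 0.138) and with only the groups compared, and that of ORC1 also without the filter. The calls of POLA1, GINS2 and POLD3 were lost without any 1 of 3 libraries, 2 libraries and 1 library (up to 0.102, 0.0541 and 0.0713). With the replicate block, again a pairing that no label states, 23 genes passed in place of 16. Of all tested genes, 34.4% passed in place of 26.6%. All 16 were among the 23, and TYMS (edgeR adjusted p = 0.0238), FEN1, GINS1, ORC5, POLD2, PRIM1 and UNG were added, all of them higher.

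**Figure D4:**
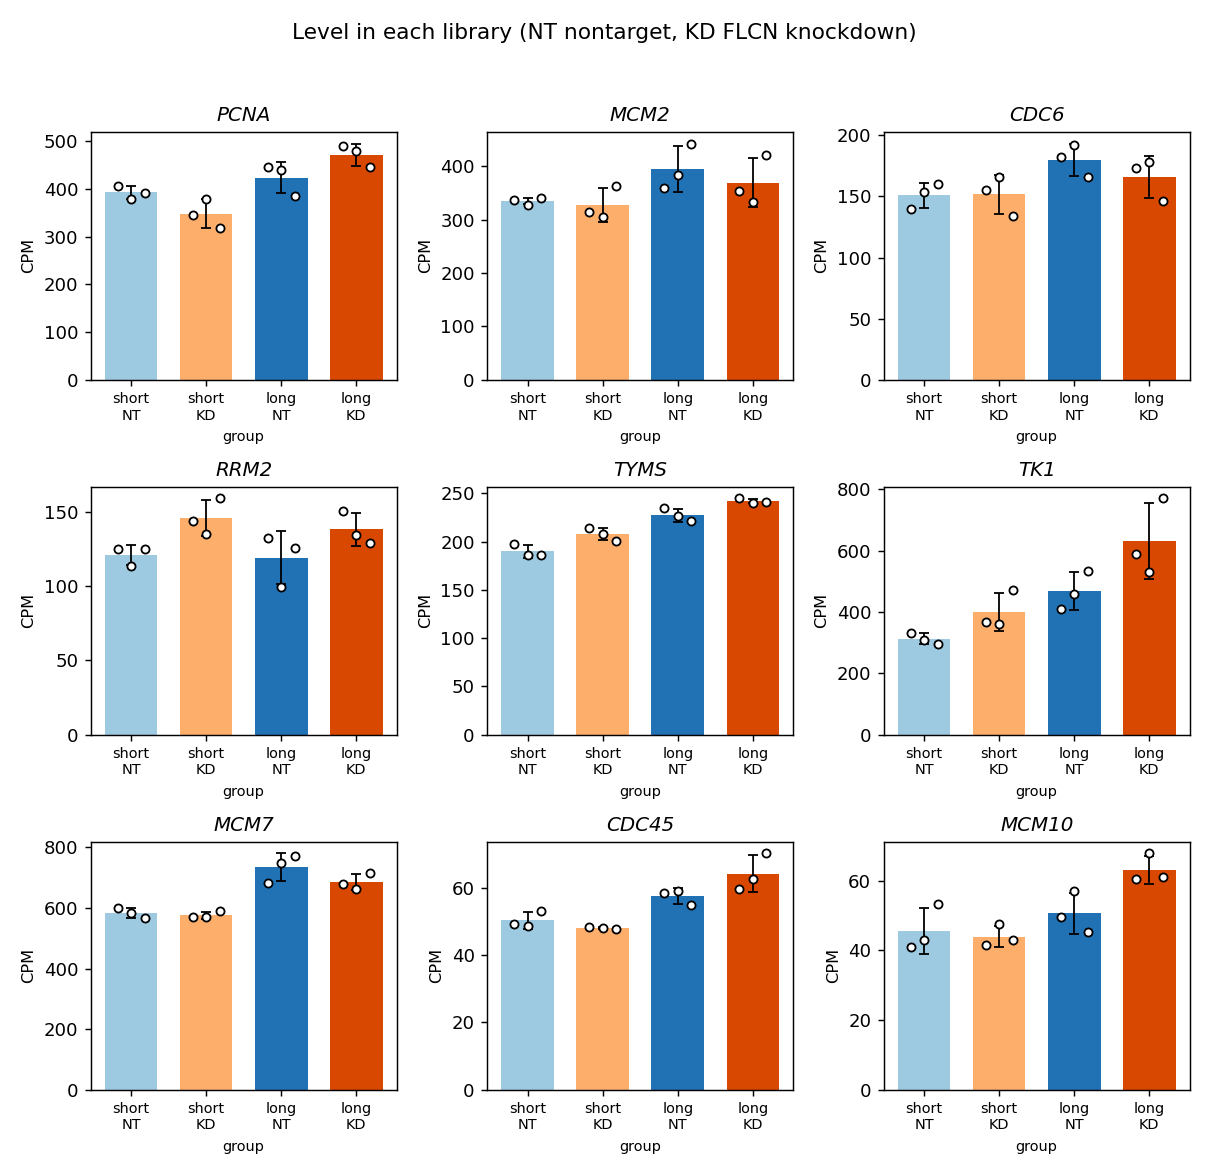
Level in CPM (vertical axes, from 0) of PCNA, MCM2, CDC6, RRM2, TYMS, TK1, MCM7, CDC45 and MCM10 in each library (circles), with the mean of each group of 3 (bar) and its SD (error bar). The means of TK1 and MCM7 stand higher in both long-term groups than in the short-term groups, and the TK1 libraries of long-term knockdown range from 532 to 771 CPM.

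By group mean, long-term knockdown cells had the highest level for 21 of the 49 genes, and short-term knockdown cells the lowest for 10 of these 21. TK1 had the widest range of group means, 313 ± 17.6 CPM (SD, n = 3) and 400.2 ± 61.0 CPM in short-term nontarget and knockdown cells, 468 ± 62.9 and 631 ± 125 CPM in the long-term ones. Neighboring groups overlapped by library from the second group on. RPA1 came next, with 206 ± 8.88, 237 ± 9.37, 220.4 ± 11.9 and 382 ± 19.7 CPM in the same groups. MCM4 stayed within 378 ± 14.2 and 431 ± 12.9 CPM, and RNASEH2A, the catalytic subunit of the nuclease that removes RNA primers, within 83.3 ± 4.26 and 90.9 ± 9.83 CPM.

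Several of the genes lie in stretches of chromosome whose genes moved in the same direction. After long-term knockdown, the 40 tested genes nearest to RPA1 had a median log2 fold change of 0.56, beside 0.79 for RPA1 itself. The medians were 0.25 around TK1, also on chromosome 17, and 0.25, 0.23 and 0.16 around RFC2, ORC5 and RPA3 on chromosome 7. They were 0.19 around RFC4, 0.03 around PRIM1, 0.00 around RFC5, −0.00 around RPA2 and −0.07 around POLA1. MCM7 and POLD2, also on chromosome 7, had neighbors at 0.37 and 0.40 but values of −0.10 and 0.22 that did not pass. In the interaction, the medians were 0.48 around RPA1, 0.33 around ORC5, 0.23 around RPA3, 0.20 around RFC4 and 0.19 around RFC2, and over culture time in nontarget cells they were −0.25 around MCM7 and −0.23 around ORC5. Over culture time in knockdown cells the medians were 0.48 around RPA1 and 0.40 around TK1, beside 0.69 and 0.66 for the genes, and −0.23 around ORC2, beside −0.49. They were 0.21 around RFC4, 0.08 around PCNA and 0.02 around RPA3. What part of each gene's change goes with its stretch of chromosome was not tested.

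**Figure D5:**
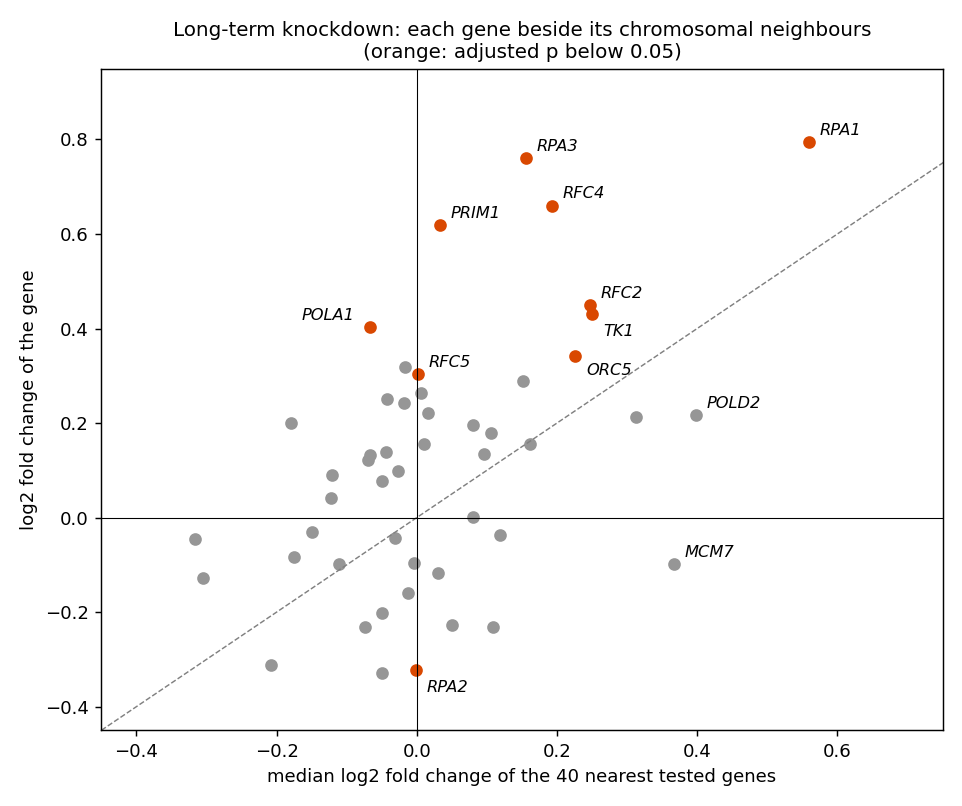
Log2 fold change of each of the 49 genes after long-term knockdown (vertical) against the median of its 40 nearest tested genes on the chromosome (horizontal), with a dashed line where both are equal and the genes at an edgeR adjusted p below 0.05 in orange. RPA1 lies far to the right, at a neighbor median of 0.56, while PRIM1, POLA1, RFC5 and RPA2 lie near 0.

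The E2F letters were found at 1 of the 8 genes with a window that passed in long-term knockdown (12.5%), POLA1, and at 19 of the 34 that did not (55.9%). The windows of MCM2, MCM3, MCM6, MCM7, CDC6 and TYMS held them, and these genes did not pass. With the replicate block, where MCM3 and UNG passed, the letters were found at 3 of 13 genes that passed (23.1%) and at 17 of 29 that did not (58.6%). The CCAAT box was found in this comparison at 5 of the 8 (62.5%) and 21 of the 34 (61.8%), and with the block at 10 of 13 (76.9%) and 16 of 29 (55.2%). Over culture time in knockdown cells the letters were found at 5 of the 14 genes that passed (35.7%) and at 15 of 28 that did not (53.6%), and the CCAAT box at 12 of 14 (85.7%) and 14 of 28 (50%). With the block the E2F letters were found there at 8 of 21 genes that passed (38.1%) and at 12 of 21 that did not (57.1%), and the CCAAT box at 16 (76.2%) and 10 (47.6%). These shares were not tested.

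Of the other genes of the pathway, listed as partners of the fork and of origins, suppliers of deoxynucleotides and thymidylate, and enzymes of purine and pyrimidine synthesis, members of each list moved in both directions after long-term knockdown. There, beside 13.7% of all tested genes higher and 15.8% lower, 8 of 33 fork and origin partners rose and 1 fell, 1 of 15 suppliers rose and 5 fell, and 3 of 15 synthesis genes rose and 3 fell. DCTD, the dCMP deaminase, had a log2 fold change of −1.12 (SE 0.0899, edgeR adjusted p = 6.33e-08), CTPS1, a CTP synthase, −1.61 (SE 0.149, 3.51e-07) and TK2, the mitochondrial thymidine kinase, −1.16 (SE 0.148, 1.18e-05). DGUOK, the mitochondrial deoxyguanosine kinase, rose by 0.92 (edgeR adjusted p = 5.56e-06), GMPS, the GMP synthetase, by 0.59 (2.69e-04) and CAD, which starts pyrimidine synthesis, by 0.60 (0.00388). After short-term knockdown, beside 5.62% of all tested genes higher and 4.71% lower, 1 of the 33 partners rose and 1 fell, 1 of the 15 suppliers rose and 2 fell, and 2 of the 15 synthesis genes rose. DTYMK, the thymidylate kinase, rose by 0.43 (edgeR adjusted p = 0.0108), and SHMT1, an enzyme of folate metabolism, fell by 0.54 (0.00247).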

How the data were processed

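Per the labels and the paper's methods, the authors made TruSeq RNA libraries, mapped reads with STAR to GRCh38 and counted them per gene with featureCounts, and the deposited tables hold the raw count per gene. Versions, annotation release and strand setting are not given in the sources used here, and exon overlaps are therefore given for either strand. The deposited normalized columns, with the unit score, were not used. The table and the per-library files differed in 0 values.

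Gene IDs were matched to GENCODE 29. The counts went into edgeR 4.0.16 (R 4.3.3): genes kept by filterByExpr (minimum count 10), TMM factors, and a robust quasi-likelihood fit of all 12 libraries with a term per group (prior count 0.125). Contrasts were knockdown at each time, culture time without and with knockdown, and their interaction. Two-sided p-values were adjusted over 13959 genes (Benjamini-Hochberg), and the threshold was 0.05. Intervals are 95%. CPM uses normalized library sizes. The biological coefficient of variation was 12.0%, and replicates differed by a chi-square of 2.07 to 11.9 per degree of freedom, more than counting error. The labels and methods call replicates biological without saying whether they were separate cultures, so p-values measure the spread between these libraries. The fit was tested on simulated data with known changes.

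Same-numbered libraries' deviations from group means correlated at −0.101 to 0.467 over 18 pairs. All pairs were over 0.1 between long-term nontarget and long-term knockdown and between the knockdown groups, where the number was taken to pair the samples, and not in comparisons with short-term nontarget cells. No label states this pairing, and the own number gave the highest r in 12 of the 18 pairs. The highest correlations, at 0.455 to 0.467, were between libraries numbered 3. The blocked fit used all 12 libraries.

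The genes and lists were chosen with earlier results of these data known. Values per library were given for PCNA, MCM2, CDC6, RRM2, TYMS and the 3 genes of lowest adjusted p in each comparison and direction, the others by role, and from the pathway lists the 3 of lowest adjusted p could be named. Library values of CDT1, RFC2, RFC5, PRIM1, POLA1 and CDC45 were added after they were seen. Alternatives were RLE factors, DESeq2 1.42.0, no filter, a mean of at least 10 CPM, the per-library files, a replicate block, only the groups compared, the study's fold limits of 2.5 (knockdown) and 2 (culture time), and leaving out each library.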

Additional observations from a re-analysis of the deposited data

Results flagged for a closer look

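The effect of FLCN knockdown differed between long-term and short-term cells for 5 of the 49 genes, by the interaction term of edgeR's quasi-likelihood test, where 13.4% of all tested genes passed (4.98% with the long-term value higher). The count fell to 3 without any 1 of 5 libraries, RFC4 being lost without those 5 and RFC2 without any 1 of 10. RFC2 was also lost without the filter on low counts. The long-term minus short-term difference in log2 fold change was 0.74 for ORC5 (SE 0.175, edgeR adjusted p = 0.00779), 0.42 for RFC2 (SE 0.133, 0.0469), 0.68 for RFC4 (SE 0.193, 0.0246), 0.59 for RPA1 (SE 0.123, 0.00311) and 0.89 for RPA3 (SE 0.211, 0.00800). Of these genes, ORC5, RFC2 and RPA3 lie on chromosome 7, where their 40 nearest tested genes had median differences of 0.33, 0.19 and 0.23, and RPA1 on chromosome 17, where the median was 0.48. The part of these medians in each difference was not tested.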

How the results depend on the processing

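No value past the threshold turned its direction under any alternative. Below it, only PCNA, MCM2, CDC6, RRM2, TYMS and FLCN were followed gene by gene, and 5 of their values near 0 turned on leaving out a library: short-term knockdown of MCM2 (−0.116 to 0.0143) and CDC6 (−0.0576 to 0.0895), RRM2 over culture time in nontarget cells (−0.106 to 0.0877) and the interactions of MCM2 (−0.164 to 0.0184) and RRM2 (−0.179 to 0.0289). RLE factors, DESeq2, no filter, the filter at 10 CPM and the per-library files kept the count of genes past the threshold within 1.5 times its value in every comparison, as did the fit on only the groups compared, which gives no interaction. Without the filter, and with only the groups compared, 7 of the 10 genes of long-term knockdown passed, ORC5, RFC5 and RPA2 being lost. In short-term knockdown the count of 2 without the filter held other genes, POLD3 lower and TK1 higher, in place of ORC5 and RPA2. With only the groups compared, that count held RPA2 and POLD3, both lower, and ORC5 was lost. A replicate block gave 9 genes in short-term knockdown, 17 in long-term knockdown, 23 over culture time in knockdown cells and 9 in the interaction, where 16.9%, 36.8%, 34.4% and 20.6% of all tested genes passed, and in the comparisons with short-term nontarget cells the samples share only a number. It ended no call. With the study's fold limits the count was 0 in each of the 5 comparisons. Leaving out each library in turn gave 0 to 3 genes in short-term knockdown, 6 to 10 in long-term knockdown, 0 to 3 and 9 to 19 for culture time in nontarget and knockdown cells and 3 to 7 in the interaction, whose median log2 difference over the 49 genes ran from 0.0505 to 0.151, the highest without long-term knockdown replicate 3. With 3 libraries a group, the replicate spread limits what could be detected, and the cause of these shifts was not tested.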

Other observations

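Over culture time, 3.17% of all tested genes rose and 4.38% fell in nontarget cells, and 11.5% rose and 15.2% fell in knockdown cells, and the counts of the other genes of the pathway stand beside these shares. Of 33 fork and origin partners, 0 rose or fell in nontarget cells (edgeR, with 3 at an unadjusted p below 0.05, beside 19.4% of all tested genes), and 4 rose and 0 fell in knockdown cells. Of 15 suppliers of deoxynucleotides and thymidylate, 1 rose and 2 fell in nontarget cells and 2 rose and 4 fell in knockdown cells. Of 15 purine and pyrimidine synthesis genes, 0 passed in nontarget cells in edgeR, with 0 at an unadjusted p below 0.05, and 1 rose and 3 fell in knockdown cells. In knockdown cells GMPS rose by 0.54, DGUOK by 0.57 and SHMT1 by 0.45, while DCTD had a log2 fold change of −0.91, CTPS1 of −1.40 and MTHFD1, an enzyme of folate metabolism, of −0.73. In nontarget cells SHMT1 rose by 0.34, and SAMHD1, which breaks down deoxynucleotides, and MTHFD1 had values of −0.72 and −0.40. The effect of knockdown itself differed between the times for DCTD by −1.03 (edgeR adjusted p = 1.89e-05), for CTPS1 by −1.53 (5.81e-05) and for ADSS2, of adenylate synthesis, by −0.65 (0.00342), and for GMPS by 0.63 (0.00580), DGUOK by 0.65 (0.00839) and ASF1A, a histone chaperone, by 0.69 (0.0219).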
